A study of Mus musculus with 36 samples.

Results

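Autophagy delivers cell contents to lysosomes inside a double-membraned vesicle, the autophagosome. The ULK kinase complex and the class III PI3-kinase complex start its formation, ATG2, ATG9 and WIPI proteins extend the membrane, and an enzyme cascade attaches ATG8 proteins to lipid in that membrane, where cargo receptors bind them. Mitophagy is the same process applied to mitochondria, and in skeletal muscle both pathways are known for clearing proteins and organelles after contraction and fasting. The 43 genes described here were chosen by name for these roles: 5 encode ATG8 proteins and the others encode the ULK complex, the class III PI3-kinase complex, the ATG2, ATG9 and WIPI proteins, the conjugation enzymes, the ATG4 proteases, the MiT/TFE transcription factors, mitophagy proteins, cargo receptors, the lysosomal membrane proteins Lamp1 and Lamp2, and the ATPase Vcp. All 43 were among the 55416 genes of the count table, and all 43 passed the filter on low counts (at least 1 CPM, the counts-per-million scale, in at least 12 of 36 libraries), which kept 13995 genes. The lowest count of any of them in any library was 122, for Pik3c3.

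RNA was sequenced from C2C12 myotubes, the multinucleate muscle cells that a mouse myoblast line forms in medium with 2% horse serum. All myotubes were transfected on day 3 of differentiation with a locked nucleic acid (LNA), a chemically modified antisense oligonucleotide, either a negative control with no target (Control) or an LNA against the long non-coding RNA *Tug1* (*Tug1* KD). On day 4, 24 h later, they underwent 3 h of electrical pulse stimulation (EPS), an in vitro model of muscle contraction given as 2 ms pulses at 13 V and 66 Hz with 5 s of stimulation alternating with 5 s of pause, or had unconnected electrodes placed in the medium (Rest). Stimulated myotubes were harvested as soon as the pulses ended (EPS 0h) or 3 h later (EPS 3h). Each of the 6 groups, Control and *Tug1* KD at Rest, EPS 0h and EPS 3h, held 6 libraries. These were replicate wells of fewer independent experiments. All libraries came from a single cell line, and no untransfected myotubes were analysed here. The comparisons asked how the autophagy genes differed with *Tug1* KD, how they responded to EPS, and whether *Tug1* KD changed that response.

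The libraries held 17005079 to 24181167 counts. The targeted *Tug1* transcript was at 38.6 to 58.3 RPM (reads-per-million, scaled by TMM, a method that sets library scaling on the bulk of the genes) in Control at Rest and at 24.0 to 33.3 RPM in *Tug1* KD, a log2FC of -0.83 (adjusted p = 0.000915, edgeR). Its log2FC was -0.57 at EPS 0h and -0.51 at EPS 3h (adjusted p = 0.0178 and 0.0414), with overlapping libraries at both times. Replicates 1 to 3 and replicates 4 to 6 stood apart: on the first principal component of the deviations from the group means, 16 of 18 libraries of replicates 1 to 3 and 0 of 18 of replicates 4 to 6 lay on the same side. The log2FC within each set is therefore given for many, but not all, of the genes described library by library. For *Tug1* itself it was -0.94, -0.49 and -0.50 in replicates 1 to 3 at Rest, EPS 0h and EPS 3h (adjusted p = 0.0236, 0.266 and 0.227, edgeR) and -0.71, -0.66 and -0.53 in replicates 4 to 6 (adjusted p = 0.00454, 0.00657 and 0.0358). Summed over 12 myotube markers, of which 11 passed the filter, the level was 15383 to 20030 RPM in Control and 16010 to 21622 RPM in *Tug1* KD at Rest, so the labelled cell type carried its markers.

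Per kilobase of annotated exon, the most abundant of the 43 transcripts in Control at Rest were Map1lc3a (mean 139.7 RPKM), Lamp1 (139 RPKM) and Gabarap (137 RPKM), followed by Vcp (60.7 RPKM). The least abundant were Atg4c (1.22 RPKM), Atg10 (1.62 RPKM) and Pik3c3 (1.75 RPKM). These RPKM are levels over all exons of a gene and do not separate its transcripts.

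*Tug1* KD changed few of the autophagy genes, and Vcp and Atg7 differed most. At Rest, 3 of the 43 genes were higher and 1 was lower with *Tug1* KD at an adjusted p under 0.05 (edgeR), which is 6.98% and 2.33% of them, where 5.54% of all 13995 genes were higher and 4.47% were lower. At EPS 0h, 4 were higher and 1 was lower (9.3% and 2.33%, against 8.25% and 6.07% of all genes). At EPS 3h, 2 were higher and 1 was lower (4.65% and 2.33%, against 6.38% and 5.11% of all genes). The shares with higher level were close to those of all genes, and the median absolute log2FC of the 43 genes was 0.10, 0.15 and 0.10 at Rest, EPS 0h and EPS 3h, below the 0.15, 0.18 and 0.16 of all genes. With the replicate number as a block, the call count moved from 4 to 7 at Rest, gaining Atg12 (adjusted p = 0.0153), Atg4a (0.00762) and Lamp2 (0.0374), from 5 to 9 at EPS 0h, gaining Uvrag (adjusted p = 0.00527), Atg12 (0.0183), Atg4a (0.0166) and Lamp2 (0.0359), and from 3 to 7 at EPS 3h, gaining Uvrag (0.00721), Ambra1 (0.0462), Atg2a (0.010) and Atg2b (0.0457), all higher. Over all genes the block raised the counts as well, from 1401 to 2410 at Rest, from 2005 to 3406 at EPS 0h and from 1608 to 2878 at EPS 3h.

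**Figure D1:**
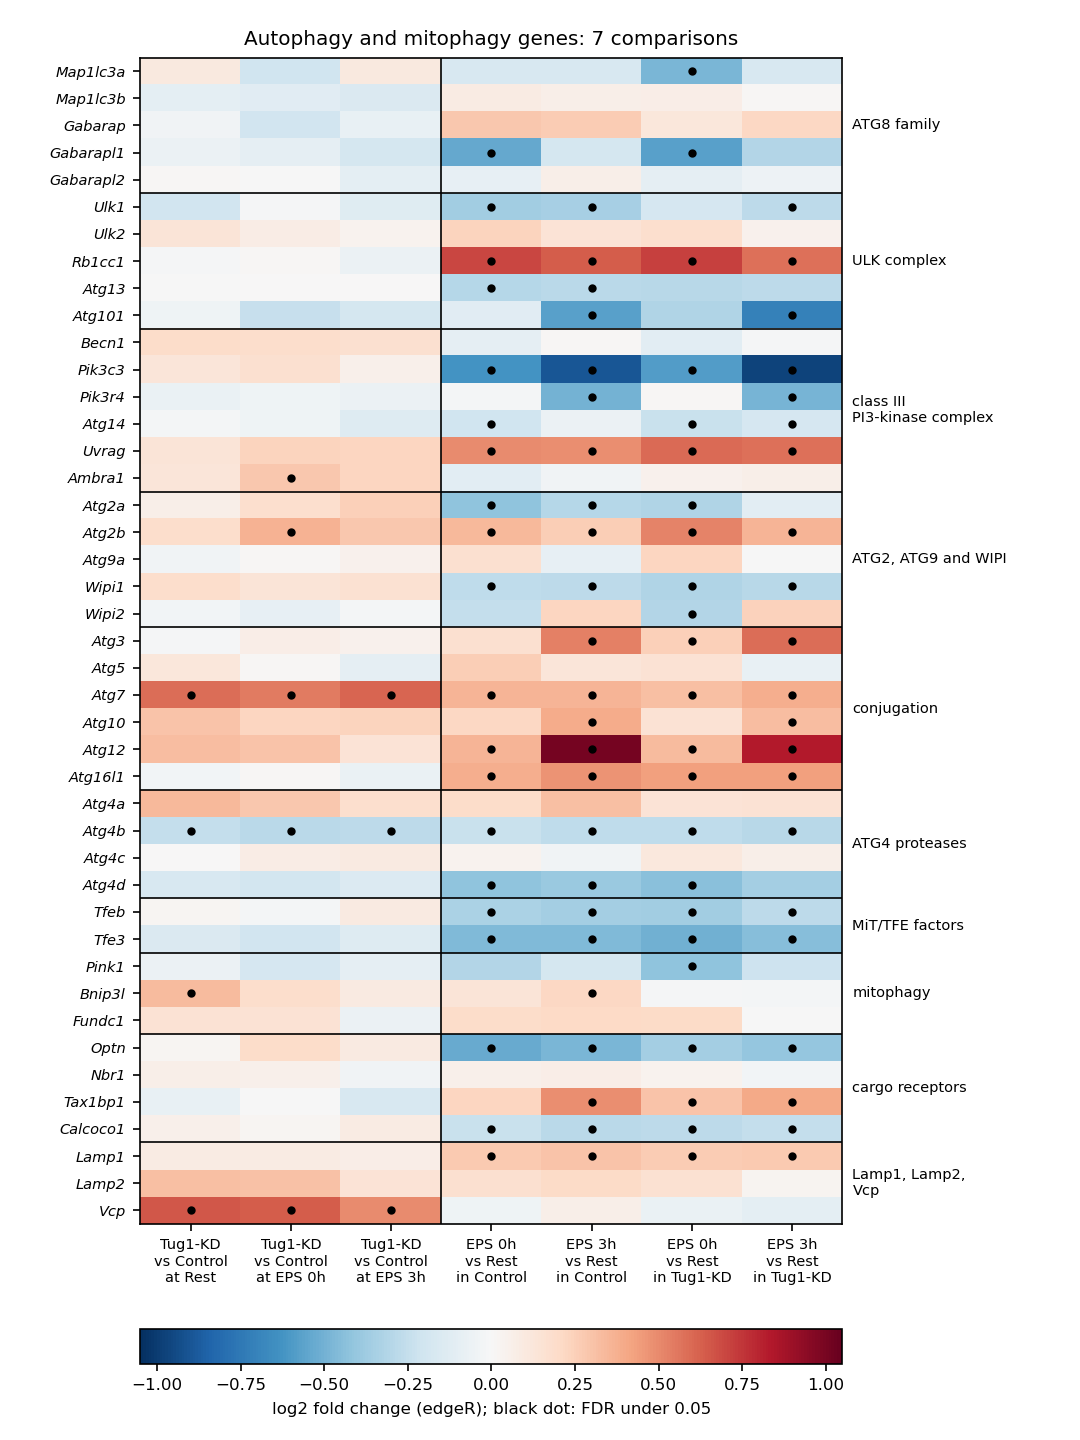
Heat map of log2FC for the 43 autophagy and mitophagy genes (rows, by role) in 3 comparisons of *Tug1* KD with Control and 4 of EPS with Rest (columns). Colour gives the log2FC (red higher, blue lower) and a dot marks an adjusted p under 0.05. The *Tug1* KD columns hold 4, 5 and 3 dots and the EPS columns 20, 24, 23 and 21.

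Vcp, an ATPase that extracts ubiquitylated proteins from membranes and complexes, was higher with *Tug1* KD at all 3 times. At Rest it was at 361 to 405 RPM in Control (median 370.3) and at 552 to 635 RPM in *Tug1* KD (median 599). At EPS 0h it ranged from 333 to 385 RPM (median 369) in Control and from 514 to 611 RPM (median 574) in *Tug1* KD, and at EPS 3h from 365 to 438 RPM (median 378) and from 472 to 636 RPM (median 558). Every *Tug1* KD library lay above every Control library at each time. The log2FC was 0.65 at Rest (1.57-fold, SE 0.069, adjusted p = 2.18e-08, edgeR), 0.63 at EPS 0h (adjusted p = 3.39e-08) and 0.50 at EPS 3h (adjusted p = 3.53e-06). At Rest, EPS 0h and EPS 3h it was 0.73, 0.57 and 0.41 within replicates 1 to 3, and 0.58, 0.72 and 0.58 within replicates 4 to 6. The gene lies on the minus strand at chr4:42979412-43000527 (GRCm39), and Vcp-rs, a copy 99.0% identical over 2421 bases, had a mean count of 72.2 against 9351 for Vcp. EPS itself left Vcp without a call, with log2FC of -0.04 and 0.06 in Control and -0.07 and -0.10 in *Tug1* KD at EPS 0h and EPS 3h, where library-size scaling called it lower in *Tug1* KD at both times.

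Atg7, the E1-like enzyme that activates ATG8 proteins and Atg12 for conjugation (plus strand, chr6:114620044-114837576), was likewise higher with *Tug1* KD. At Rest it was at 18.1 to 26.6 RPM in Control (median 22.8) and at 28.3 to 38.3 RPM in *Tug1* KD (median 34.8). At EPS 0h the values were 25.1 to 33.6 RPM (median 29.0) and 37.5 to 46.4 RPM (median 43.5), and at EPS 3h 26.5 to 31.7 RPM (median 30.3) and 37.5 to 50.8 RPM (median 46.3). The groups did not overlap at any of the 3 times. The log2FC was 0.58 at Rest (1.499-fold, SE 0.098, adjusted p = 6.52e-05, edgeR), 0.55 at EPS 0h (adjusted p = 0.000115) and 0.61 at EPS 3h (adjusted p = 3.62e-05), with 0.45 to 0.68 within either set of replicates. These calls of Vcp and Atg7 held in all 8 alternative analyses.

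Bnip3l, an outer mitochondrial membrane receptor for mitophagy (chr14:67222678-67246356, minus strand), was at 77.1 to 87.8 RPM in Control at Rest (median 79.0) and at 97.8 to 105 RPM in *Tug1* KD (median 101). All *Tug1* KD libraries were above all Control libraries, with a log2FC of 0.33 (SE 0.080, adjusted p = 0.00426, edgeR). Within replicates 1 to 3 it was 0.35 (adjusted p = 0.086) and within replicates 4 to 6 it was 0.31 (adjusted p = 0.043). At EPS 0h and EPS 3h the groups overlapped, and the log2FC was 0.18 (adjusted p = 0.124) and 0.09 (adjusted p = 0.551).

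Atg4b, the protease that trims ATG8 proteins before conjugation and later frees them from lipid (chr1:93679222-93718332, plus strand), was the gene that fell with *Tug1* KD. At Rest it was at 67.4 to 78.6 RPM in Control (median 73.0) and at 56.7 to 64.2 RPM in *Tug1* KD (median 61.9), with no overlap. At EPS 0h the ranges were 55.8 to 68.3 RPM (median 62.8) and 45.9 to 57.7 RPM (median 50.6), and at EPS 3h 52.6 to 69.6 RPM (median 60.9) and 41.0 to 55.1 RPM (median 52.3). The groups overlapped at both EPS times. The log2FC was -0.25, -0.28 and -0.27 at Rest, EPS 0h and EPS 3h (SE 0.078 at Rest, adjusted p = 0.0356, 0.0117 and 0.0172, edgeR). Within replicates 1 to 3 it was -0.17, -0.28 and -0.30, and within replicates 4 to 6 it was -0.32, -0.27 and -0.25. None of the 3 calls held without the filter on low counts or in replicates 1 to 3 alone, and the EPS 3h call held in neither set of replicates.

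**Figure D2:**
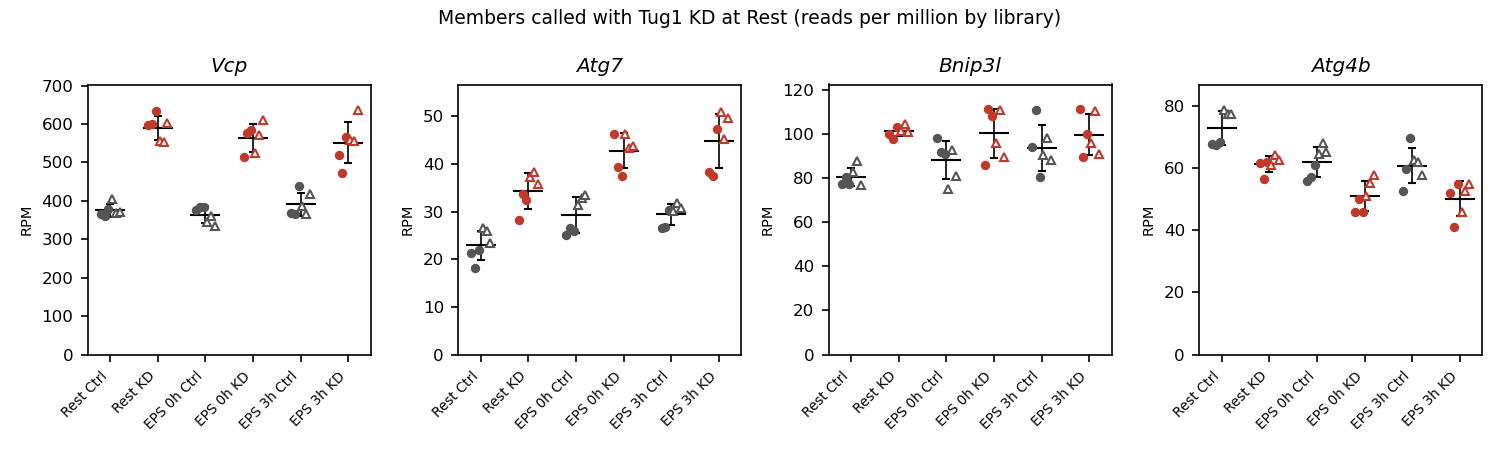
Level in each library (y axis, TMM-scaled RPM) of Vcp, Atg7, Bnip3l and Atg4b at Rest, EPS 0h and EPS 3h (x axis), in Control (grey) and *Tug1* KD (red). Filled circles are replicates 1 to 3, open triangles replicates 4 to 6, and bars the mean ± SD of 6 libraries. For Vcp and Atg7 the *Tug1* KD libraries sit above all Control libraries at each time.

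The membrane-extension gene Atg2b and Ambra1, a scaffold that links Beclin 1 to the ULK complex, were the other genes called with *Tug1* KD, both at EPS 0h. Atg2b, which encodes a lipid-transfer protein, was at 51.4 to 72.1 RPM in Control (median 64.5) and at 72.5 to 93.2 RPM in *Tug1* KD (median 79.0), without overlap and with a log2FC of 0.36 (SE 0.106, adjusted p = 0.0167, edgeR). Ambra1 had a log2FC of 0.28 (SE 0.081, adjusted p = 0.0148) with no overlap. Both calls were lost without the filter on low counts and in replicates 1 to 3 alone. Over all libraries and without a term for replicates, Atg12, Lamp2 and Becn1 did not pass the test with *Tug1* KD. At Rest, EPS 0h and EPS 3h the log2FC was 0.32, 0.30 and 0.15 for Atg12, 0.31, 0.30 and 0.14 for Lamp2, and 0.19, 0.18 and 0.17 for Becn1. The Atg12 libraries of *Tug1* KD nonetheless lay above all Control libraries at Rest (adjusted p = 0.0655, edgeR). With the block, Atg12 and Lamp2 passed at Rest and EPS 0h, as given above, and they did so with a term for the set of replicates. In replicates 4 to 6 alone Becn1 was called higher at all 3 times and Atg12 at EPS 0h.

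With *Tug1* KD, some markers of cell state were called lower and none higher. Of the 6 reserve-cell and undifferentiated-myoblast markers, Hey1 was lower at Rest (log2FC -0.49, adjusted p = 0.0223, edgeR), Spry1 (-0.32, 0.0321) and Id3 (-0.54, 0.0382) at EPS 0h, and none at EPS 3h, and at Rest Pax7 and Spry1 had log2FC of 0.03 and 0.02. The proliferation marker Ccnb1 was lower at EPS 3h (-0.39, 0.0406), and the myotube marker Actn3 at EPS 0h and EPS 3h (-0.36 at both, 0.0362 and 0.0419), while 0 of the 11 myotube markers were called at Rest. The reserve-cell markers summed to 176 to 234 RPM in Control and 147 to 176 RPM in *Tug1* KD at Rest, and to 111 to 152 RPM and 94.3 to 122 RPM at EPS 3h. The 6 markers of proliferating myoblasts summed to 133 to 171 RPM in Control and 110.0 to 147 RPM in *Tug1* KD at Rest. In bulk RNA, fewer cells of a type and less RNA per cell cannot be told apart, and the part of these cells in the differences of the autophagy genes was not tested.

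EPS changed about as many of the autophagy genes as it left uncalled, and they moved in both directions. In Control, 7 rose and 13 fell at EPS 0h (16.3% and 30.2%, against 20.5% and 18.4% of all genes, edgeR). At EPS 3h in Control, 11 rose and 13 fell (25.6% and 30.2%, against 26.1% and 25.9% of all genes). In *Tug1* KD, 9 rose and 14 fell at EPS 0h (20.9% and 32.6%, against 24.4% and 21.2%), and 10 rose and 11 fell at EPS 3h (23.3% and 25.6%, against 26.2% and 25.9%). The shares that rose were close to or below those of all genes at each time, and the shares that fell were above them at EPS 0h and close to them at EPS 3h. The median log2FC of the 43 genes lay between -0.02 and 0.06 in the 4 comparisons. In Control at EPS 0h the split was 13 higher and 11 lower in replicates 1 to 3 alone. In replicates 4 to 6 alone it was 5 and 9, and shares of all genes are not given for these fits.

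Markers of cell state moved with EPS as well. Summed over the 6 reserve-cell and undifferentiated-myoblast markers, all EPS 3h libraries (111 to 152 RPM in Control, 94.3 to 122 RPM in *Tug1* KD) lay below the Rest libraries of their LNA, while at EPS 0h the sums overlapped Rest (165 to 240.1 RPM and 136 to 187 RPM). Id3 fell by 2.04 in Control and 1.70 in *Tug1* KD on the log2 scale at EPS 3h, and Pax7 fell by 0.62 and 0.51, while Hey1 rose by 0.34 in *Tug1* KD. At EPS 0h, Id3 fell by 0.80 and 0.81, Myf5 rose by 1.31 and 1.41 and Hey1 by 0.63 and 0.85, Spry1 rose by 0.52 in Control and Pax7 by 0.34 in *Tug1* KD. Of the proliferation markers, Mki67 rose in all 4 EPS comparisons and Ccnb1 fell in all 4, and Aurkb fell in 3, by 0.65 at EPS 3h in Control. The 11 myotube markers held 0 calls in Control, and Tnnt3 at EPS 0h and Myog and Myh1 at EPS 3h were lower in *Tug1* KD. The part of these cell states in the EPS differences of the autophagy genes was not tested.

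Each gene was called in a single direction: 11 genes rose in at least 1 of the 4 EPS comparisons, 18 fell in at least 1, and 14 were not called with EPS. Rb1cc1, Uvrag, Atg2b, Atg7, Atg12, Atg16l1 and Lamp1 rose in all 4, and Pik3c3, Wipi1, Atg4b, Tfeb, Tfe3, Optn and Calcoco1 fell in all 4. With the replicate number as a block the counts were 26, 27, 27 and 25, where 49.9%, 61.2%, 56.9% and 61.4% of all genes were called, and Wipi2 was then called lower at EPS 0h (log2FC -0.26, adjusted p = 0.0053) and higher at EPS 3h (log2FC 0.23, adjusted p = 0.00921) in Control. In *Tug1* KD the block likewise called Wipi2 lower at EPS 0h (log2FC -0.31, adjusted p = 0.000722) and higher at EPS 3h (log2FC 0.22, adjusted p = 0.0133, edgeR). EPS 0h and EPS 3h of each LNA share their Rest libraries, so their values are given side by side only. When library size alone set the scaling, the median of all genes moved by -0.168 at EPS 3h in Control and by -0.164 in *Tug1* KD, and the changes here are relative to the TMM scaling. With that scaling the split of calls became 6 higher and 18 lower at EPS 3h in Control, 5 and 20 at EPS 3h in *Tug1* KD, and 6 and 19 at EPS 0h in *Tug1* KD. All genes tilted the same way: of the 13995, 2675 were higher and 5526 lower at EPS 3h in Control, 2802 and 5671 at EPS 3h in *Tug1* KD, and 2843 and 4160 at EPS 0h in *Tug1* KD.

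Among the conjugation genes, every call with EPS was upward. Of its 6 members (Atg3, Atg5, Atg7, Atg10, Atg12 and Atg16l1), 3 and 5 rose in Control at EPS 0h and EPS 3h, 4 and 5 in *Tug1* KD, and none fell, where 20.5%, 26.1%, 24.4% and 26.2% of all genes rose and 18.4%, 25.9%, 21.2% and 25.9% fell. The counts by role given here and in the paragraphs that follow were not tested against these shares. The median log2FC over the 6 was 0.31 and 0.43 in Control and 0.29 and 0.41 in *Tug1* KD. Atg5, the acceptor of Atg12, was the member not called, with log2FC of 0.26, 0.13, 0.15 and -0.08 (adjusted p = 0.0646 for the first, and 0.0364 with the replicate block, edgeR). DESeq2 and replicates 1 to 3 alone also called Atg5 higher at EPS 0h in Control.

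Atg12, the ubiquitin-like protein that is joined to Atg5, was the most raised of the 43 genes at EPS 3h. In Control it was at 61.8 to 66.9 RPM at Rest (median 63.0), 69.9 to 93.3 RPM at EPS 0h (median 81.0) and 91.2 to 172 RPM at EPS 3h (median 120.1). In *Tug1* KD it was at 74.1 to 87.2 RPM (median 79.1), 81.2 to 114 RPM (median 101) and 111 to 180.1 RPM (median 139.6). Libraries at EPS 3h lay above all Rest libraries of the same LNA, and at EPS 0h they did so in Control. In Control the log2FC was 0.36 at the earlier and 1.01 at the later time (2.01-fold, SE 0.114, adjusted p = 0.0116 and 3.21e-09, edgeR), and 0.33 and 0.83 in *Tug1* KD (adjusted p = 0.0154 and 1.35e-07). Within replicates 1 to 3 and replicates 4 to 6 the EPS 3h value was 1.13 and 0.89 in Control and 0.92 and 0.75 in *Tug1* KD. The EPS 3h calls held in all 8 alternatives, while both EPS 0h calls were lost in replicates 4 to 6 alone, and that in *Tug1* KD also with library size as the only scaling and without the filter on low counts.

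Atg16l1, which with the Atg12 conjugate places ATG8 proteins on the membrane, rose from 51.3 to 62.3 RPM at Rest (median 56.9) to 72.1 to 78.2 RPM at EPS 0h (median 74.0) and 75.3 to 83.6 RPM at EPS 3h (median 78.1) in Control. In *Tug1* KD the ranges were 52.7 to 59.3 RPM (median 55.6), 70.0 to 79.6 RPM (median 75.8) and 66.9 to 84.2 RPM (median 75.2). No EPS library overlapped the Rest libraries of its LNA. The log2FC was 0.38 and 0.47 in Control (SE 0.064 at EPS 0h, adjusted p = 1.12e-05 and 1.42e-07, edgeR) and 0.43 at both times in *Tug1* KD (adjusted p = 1.38e-06 and 5.67e-07), with 0.34 to 0.53 within either set of replicates.

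Atg3, the E2-like enzyme that passes ATG8 proteins to lipid (plus strand, chr16:44978748-45008901), was at 66.3 to 98.9 RPM at Rest (median 86.2), 82.8 to 103.6 RPM at EPS 0h (median 94.9) and 107 to 131 RPM at EPS 3h (median 123) in Control. The *Tug1* KD libraries were at 75.1 to 91.3 RPM (median 81.7), 92.9 to 109.7 RPM (median 97.3) and 113 to 139 RPM (median 124). EPS 3h libraries were above all Rest libraries with either LNA. The log2FC at EPS 3h was 0.53 in Control (SE 0.080, adjusted p = 8.35e-07, edgeR) and 0.59 in *Tug1* KD (adjusted p = 1.17e-07), with 0.49 and 0.60, and 0.50 and 0.70, in the sets of replicates. At EPS 0h it was 0.17 (adjusted p = 0.0939, and 0.0375 with the replicate block) in Control and 0.25 (adjusted p = 0.00949) in *Tug1* KD. The latter call was lost with library size as the only scaling, without the filter on low counts and in replicates 1 to 3 alone. In Control at EPS 0h, DESeq2 and replicates 4 to 6 alone called Atg3 higher.

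Atg7 rose with EPS by 0.35 and 0.36 in Control (adjusted p = 0.00434 and 0.00239, edgeR) and by 0.32 and 0.39 in *Tug1* KD (adjusted p = 0.008 and 0.00114) on the log2 scale, with overlap between EPS and Rest libraries. Atg10, the E2-like enzyme for Atg12, was called at EPS 3h only, with log2FC of 0.39 in Control (adjusted p = 0.00962) and 0.33 in *Tug1* KD (adjusted p = 0.0279). Both Atg10 calls and the Atg7 call at EPS 3h in Control were lost with library size as the only scaling, and all but the EPS 0h call of Atg7 in Control were lost without the filter on low counts.

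**Figure D3:**
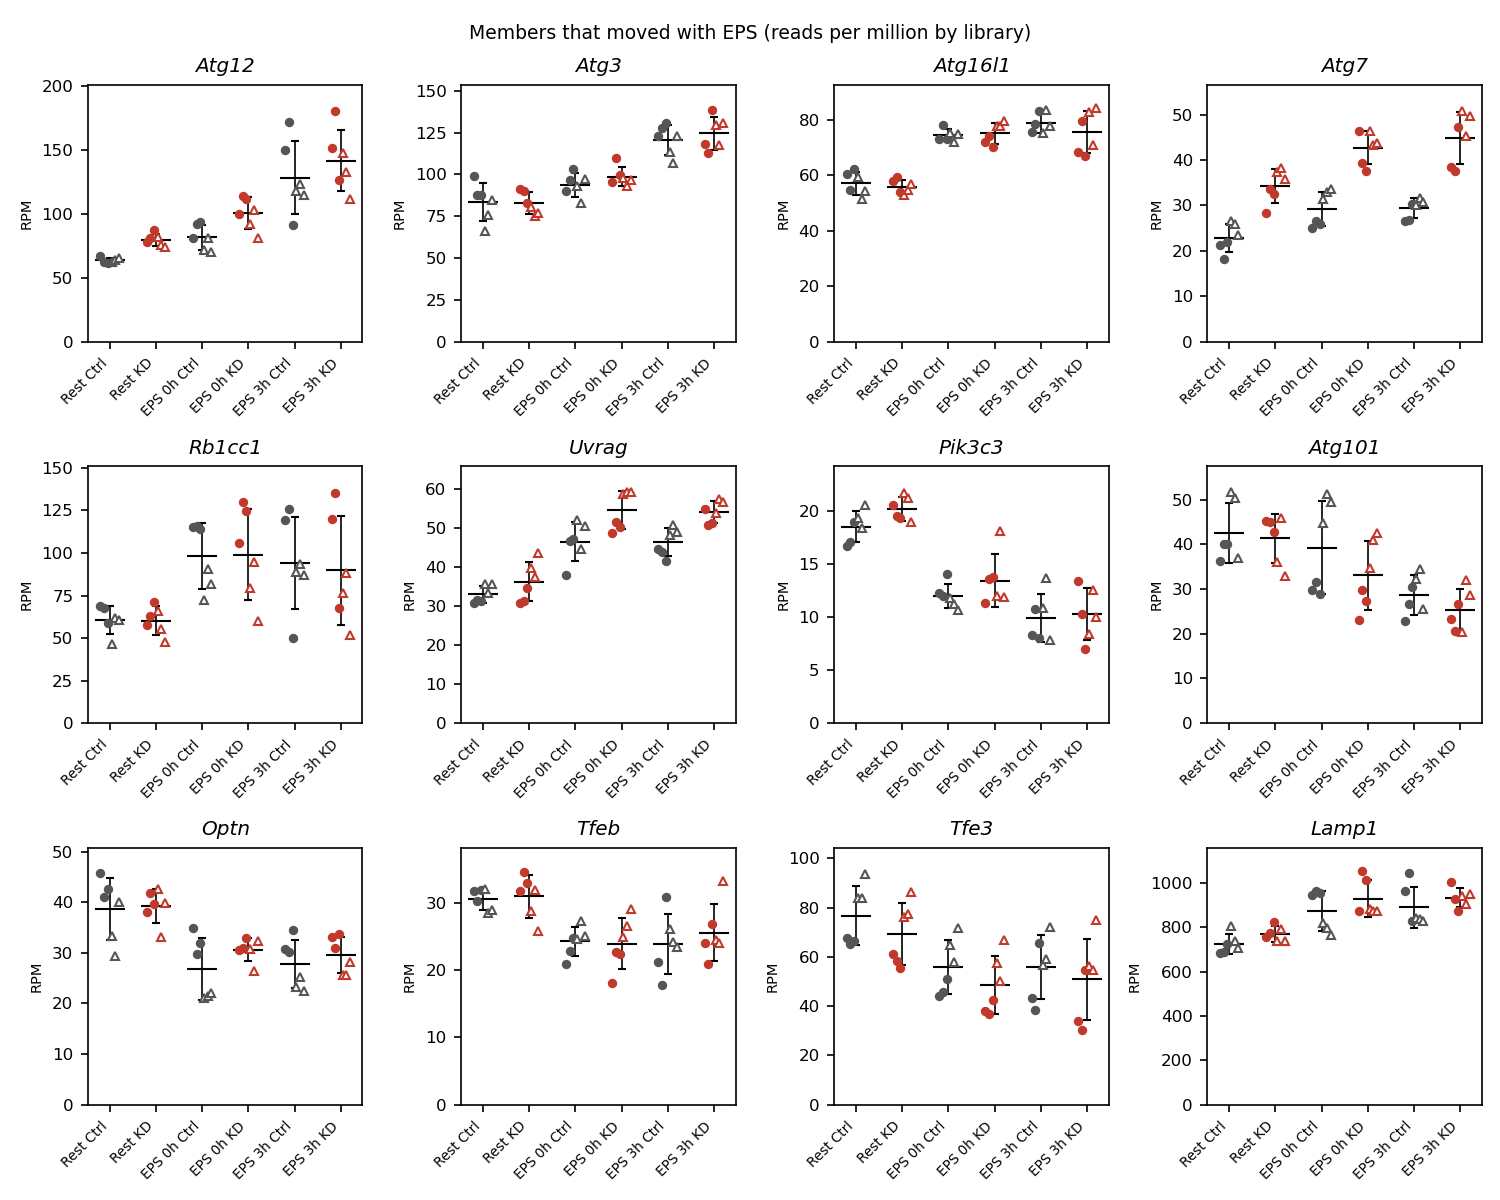
Level in each library (y axis, TMM-scaled RPM) of 12 autophagy genes at Rest, EPS 0h and EPS 3h (x axis), in Control (grey) and *Tug1* KD (red). Filled circles are replicates 1 to 3, open triangles replicates 4 to 6, and bars the mean ± SD of 6 libraries. Atg12 climbs to 91.2 to 180.1 RPM at EPS 3h, Atg16l1 and Uvrag sit above Rest at both EPS times, and Pik3c3 sits below Rest at both.

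In the ULK complex, the scaffold rose while the kinase and a small subunit were lower. Rb1cc1, which encodes the scaffold FIP200 (chr1:6276421-6377444, plus strand), was at 46.5 to 68.9 RPM at Rest (median 61.0), 72.1 to 116 RPM at EPS 0h (median 102) and 50.02 to 126 RPM at EPS 3h (median 91.1) in Control. With *Tug1* KD it was at 47.6 to 71.1 RPM (median 60.4), 60.1 to 129.8 RPM (median 100.3) and 51.5 to 136 RPM (median 82.4). EPS 0h libraries of Control lay above all Rest libraries, and the other EPS groups overlapped Rest. The log2FC was 0.70 and 0.63 in Control (SE 0.200 at EPS 0h, adjusted p = 0.00551 and 0.00802, edgeR) and 0.72 and 0.58 in *Tug1* KD (adjusted p = 0.00369 and 0.0149). In replicates 1 to 3 these 4 values were 0.82, 0.61, 0.92 and 0.77, and in replicates 4 to 6 they were 0.54, 0.68, 0.47 and 0.36. Only the EPS 0h call in Control held in all alternatives.

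Ulk1, the kinase that starts autophagosome formation, was at 52.0 to 65.7 RPM at Rest (median 59.4), 40.5 to 54.6 RPM at EPS 0h (median 44.7) and 36.5 to 56.7 RPM at EPS 3h (median 44.8) in Control. Under *Tug1* KD the values were 46.1 to 58.3 RPM (median 49.8), 36.5 to 51.9 RPM (median 46.5) and 35.7 to 45.9 RPM (median 43.3). The groups overlapped except at EPS 3h in *Tug1* KD, where all libraries lay below Rest. The log2FC was -0.36 and -0.35 in Control (adjusted p = 0.00415 and 0.00399, edgeR), and -0.18 (adjusted p = 0.147, and 0.0497 with the replicate block) and -0.28 (adjusted p = 0.0214) in *Tug1* KD. In replicates 1 to 3 alone the calls at EPS 0h in Control and at EPS 3h in *Tug1* KD were lost. Library-size scaling called Ulk1 lower at EPS 0h in *Tug1* KD.

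Atg101, a small subunit that steadies Atg13 in the complex, was at 36.4 to 51.7 RPM at Rest (median 40.1), 28.9 to 51.3 RPM at EPS 0h (median 38.2) and 22.8 to 34.4 RPM at EPS 3h (median 28.5) in Control. In *Tug1* KD it was at 32.9 to 45.9 RPM (median 43.9), 23.2 to 42.5 RPM (median 32.3) and 20.4 to 32.0 RPM (median 24.9). At EPS 0h in *Tug1* KD the log2FC was -0.32 (adjusted p = 0.090, and 0.0183 with the replicate block, edgeR). All EPS 3h libraries were below Rest, with a log2FC of -0.57 in Control (SE 0.155, adjusted p = 0.00232, edgeR) and -0.71 in *Tug1* KD (adjusted p = 0.000247). The sets of replicates gave -0.53 and -0.59, and -0.90 and -0.50. Atg13, the regulatory subunit, fell by 0.30 and 0.29 on the log2 scale in Control (adjusted p = 0.0495 and 0.0468) and missed the threshold in *Tug1* KD (adjusted p = 0.0508 and 0.0531, and 0.000537 and 0.000677 with the replicate block), while Ulk2 was called only in replicates 1 to 3 alone, higher at EPS 0h in Control. With DESeq2 the Atg13 calls in Control were lost at both times, and with limma-voom at EPS 0h. In *Tug1* KD, DESeq2 called Atg13 lower at EPS 0h and limma-voom at both times. Opposite-strand exons of Arhgap1 cover 32.8% of the Atg13 exons.

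In the class III PI3-kinase complex, which makes the lipid that marks the forming membrane, the catalytic subunit fell and Uvrag rose. Pik3c3, the catalytic subunit also known as VPS34, was at 16.7 to 20.6 RPM at Rest (median 18.7), 10.7 to 14.04 RPM at EPS 0h (median 11.9) and 7.87 to 13.7 RPM at EPS 3h (median 9.53) in Control. The *Tug1* KD libraries were at 18.9 to 21.7 RPM (median 20.1), 11.3 to 18.2 RPM (median 12.8) and 7.01 to 13.4 RPM (median 10.2). Every EPS library lay below every Rest library of its LNA. The log2FC was -0.63 and -0.90 in Control (SE 0.133 at EPS 0h, adjusted p = 0.000275 and 7.08e-07, edgeR) and -0.59 and -0.97 in *Tug1* KD (adjusted p = 0.000447 and 1.62e-07), with -0.47 to -0.99 within either set of replicates.

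Uvrag, a Beclin 1 partner in the form of the complex that acts at late endosomes (chr7:98533079-98790496, minus strand), was at 30.7 to 35.8 RPM at Rest (median 32.5), 38.0 to 52.1 RPM at EPS 0h (median 47.1) and 41.5 to 50.9 RPM at EPS 3h (median 46.5) in Control. With *Tug1* KD it was at 30.8 to 43.7 RPM (median 36.04), 48.7 to 59.3 RPM (median 55.2) and 50.7 to 57.4 RPM (median 54.4). Every EPS library lay above every Rest library of its LNA. The log2FC was 0.49 at both times in Control (SE 0.084 at EPS 0h, adjusted p = 1.43e-05 and 8.11e-06, edgeR), and 0.59 and 0.58 in *Tug1* KD (adjusted p = 5.44e-07 and 4.09e-07). All 4 calls of Pik3c3 and all 4 of Uvrag held in the 8 alternatives. An exon stretch of Uvrag of up to 345 bases is repeated at 95% identity or more in exons of other genes (Mettl6, 95.1%), where reads may have been shared.

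Pik3r4, the regulatory subunit VPS15, was at 19.8 to 29.1 RPM at Rest (median 24.3), 21.3 to 27.6 RPM at EPS 0h (median 24.2) and 12.6 to 22.6 RPM at EPS 3h (median 17.1) in Control. Under *Tug1* KD the values were 19.7 to 27.1 RPM (median 23.1), 19.2 to 26.9 RPM (median 23.2) and 11.5 to 19.1 RPM (median 16.9). At EPS 0h the libraries overlapped Rest with either LNA, and at EPS 3h they were lower, without overlap in *Tug1* KD. The log2FC was -0.02 and 0.01 at EPS 0h, and -0.49 with either LNA at EPS 3h (SE 0.126, adjusted p = 0.00121 in Control and 0.00149 in *Tug1* KD, edgeR). The *Tug1* KD call was lost in replicates 1 to 3 alone. Atg14, the targeting subunit of the autophagosome-forming complex, fell by 0.21 on the log2 scale at EPS 0h in Control (adjusted p = 0.0201), and by 0.23 and 0.17 at EPS 0h and EPS 3h in *Tug1* KD (adjusted p = 0.00892 and 0.041). Its Control call was lost in either set of replicates alone and without the filter on low counts. In *Tug1* KD the EPS 0h call was lost in replicates 1 to 3 alone, and the EPS 3h call with DESeq2 and in either set alone. Becn1, which encodes the core subunit Beclin 1, was not called with EPS in the TMM-scaled fits of all libraries, and was called lower at EPS 0h in *Tug1* KD with library size as the only scaling and in replicates 1 to 3 alone. It was at 48.4 to 66.5 RPM in Control at Rest (median 58.2), 50.2 to 57.7 RPM at EPS 0h (median 53.7) and 53.6 to 65.0 RPM at EPS 3h (median 58.3). Its *Tug1* KD libraries were at 58.5 to 73.0 RPM (median 65.1), 51.1 to 66.2 RPM (median 63.0) and 55.3 to 74.6 RPM (median 66.5) and overlapped Control at each time. Opposite-strand exons of Cntd1 cover 43.8% of the Becn1 exons.

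Among the genes for membrane supply, Atg2b rose while Wipi1, which binds the lipid that Pik3c3 makes, fell. Atg2b was at 44.6 to 54.4 RPM in Control at Rest (median 50.01) and at 47.3 to 72.6 RPM in *Tug1* KD (median 53.0), and the EPS 3h libraries of Control (54.6 to 68.1 RPM, median 57.6) were the only EPS group wholly above Rest. In *Tug1* KD the EPS 0h libraries (72.5 to 93.2 RPM, median 79.0) and the EPS 3h libraries (55.4 to 84.2 RPM, median 72.6) overlapped it. The log2FC was 0.34 and 0.26 in Control (adjusted p = 0.00981 and 0.0412, edgeR), and 0.52 and 0.36 in *Tug1* KD (adjusted p = 0.000127 and 0.00461). These were 0.49, 0.25, 0.86 and 0.60 in replicates 1 to 3, against 0.17, 0.29, 0.21 and 0.17 in replicates 4 to 6. Both EPS 3h calls were lost with library size as the only scaling. Wipi1 fell by 0.27 on the log2 scale at both times in Control and by 0.32 and 0.29 in *Tug1* KD (adjusted p = 0.012, 0.00705, 0.00261 and 0.00387). Replicates 1 to 3 gave -0.31, -0.44, -0.46 and -0.41 and replicates 4 to 6 gave -0.23, -0.12, -0.17 and -0.16, where only the EPS 0h call in Control held, and that call was lost without the filter on low counts. Atg2a, the paralog of Atg2b, fell by 0.43 and 0.30 in Control and by 0.31 at EPS 0h in *Tug1* KD (adjusted p = 0.00539, 0.0357 and 0.0342), Wipi2 fell by 0.31 at EPS 0h in *Tug1* KD (adjusted p = 0.0417), and the scramblase gene Atg9a just missed the threshold at EPS 0h in *Tug1* KD with edgeR (log2FC 0.22, adjusted p = 0.0515, and 0.0314 with the replicate block), where DESeq2 and limma-voom called it higher. Replicates 1 to 3 alone called Atg9a higher at EPS 0h with either LNA, and library-size scaling called it lower at EPS 3h in Control. Exons of the long non-coding RNA Gm29253 on the same strand cover 25.2% of the Atg9a exons.

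Of the ATG8 genes, whose products coat the autophagosome, only Gabarapl1 and Map1lc3a were called, both lower. Gabarapl1 had a mean of 29.7 RPKM in Control at Rest, 20.4 RPKM at EPS 0h and 26.1 RPKM at EPS 3h, and of 28.4, 19.1 and 23.0 RPKM in *Tug1* KD. It ranged from 92.6 to 130.2 RPM at Rest (median 108) and from 58.1 to 93.6 RPM at EPS 0h (median 74.2) in Control, with overlap, and from 99.7 to 112 RPM (median 104.1) and from 55.3 to 92.0 RPM (median 67.9) in *Tug1* KD, without overlap. The log2FC at EPS 0h was -0.54 in Control (SE 0.152, adjusted p = 0.0048, edgeR) and -0.57 in *Tug1* KD (adjusted p = 0.00249), and at EPS 3h it was -0.18 (adjusted p = 0.32) and -0.30 (adjusted p = 0.091, and 0.00557 with the replicate block). Scaling by library size alone called it lower at EPS 3h with either LNA. Within replicates 1 to 3 and replicates 4 to 6 the EPS 0h value was -0.66 and -0.45 in Control and -0.80 and -0.37 in *Tug1* KD. Opposite-strand exons of 1700101I11Rik cover 31.0% of the Gabarapl1 exons.

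Map1lc3a, which encodes LC3A, was called at EPS 0h in *Tug1* KD alone. It was at 137 to 236 RPM at Rest in *Tug1* KD (median 209.9) and at 102 to 197 RPM at EPS 0h (median 134), with overlap and a log2FC of -0.48 (SE 0.193, adjusted p = 0.0413, edgeR). Replicates 1 to 3 alone gave -0.95 and replicates 4 to 6 gave -0.06, and in Control it was -0.17, with libraries at 133 to 244 RPM at Rest (median 181) and 122 to 226 RPM at EPS 0h (median 162).

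Gabarap, Map1lc3b and Gabarapl2 were not called with TMM scaling of all libraries and no block. In replicates 1 to 3 alone Gabarap was called higher at both times in Control and Gabarapl2 lower at EPS 0h in *Tug1* KD, and library-size scaling called Gabarapl2 lower at EPS 3h in *Tug1* KD. Gabarap had group means of 134 to 166 RPKM, with log2FC of 0.28 and 0.26 in Control (adjusted p = 0.0928 and 0.0993, and 0.0116 and 0.0127 with the replicate block, edgeR). In Control it was at 242 to 414 RPM at Rest (median 276), 306 to 465 RPM at EPS 0h (median 375) and 301 to 419.7 RPM at EPS 3h (median 372), and in *Tug1* KD its medians were 299, 319.9 and 347 RPM. The groups of Gabarap overlapped throughout. Map1lc3b, which encodes LC3B, had group means of 25.7 to 29.3 RPKM, with medians of 202, 224 and 214 RPM in Control and 189, 211 and 196 RPM in *Tug1* KD. Gabarapl2 had group means of 11.7 to 12.9 RPKM, with medians of 50.1 to 58.4 RPM over the 6 groups. Per kilobase of annotated exon in Control at Rest, Map1lc3a and Gabarap overlapped as the most abundant, Gabarapl1 and Map1lc3b overlapped in the middle, and Gabarapl2 was the lowest. That order depends on the annotated exon length, which was 1317 bases for Map1lc3a and 7617 for Map1lc3b. In RPM the median of Map1lc3b lay above that of Map1lc3a.

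**Figure D4:**
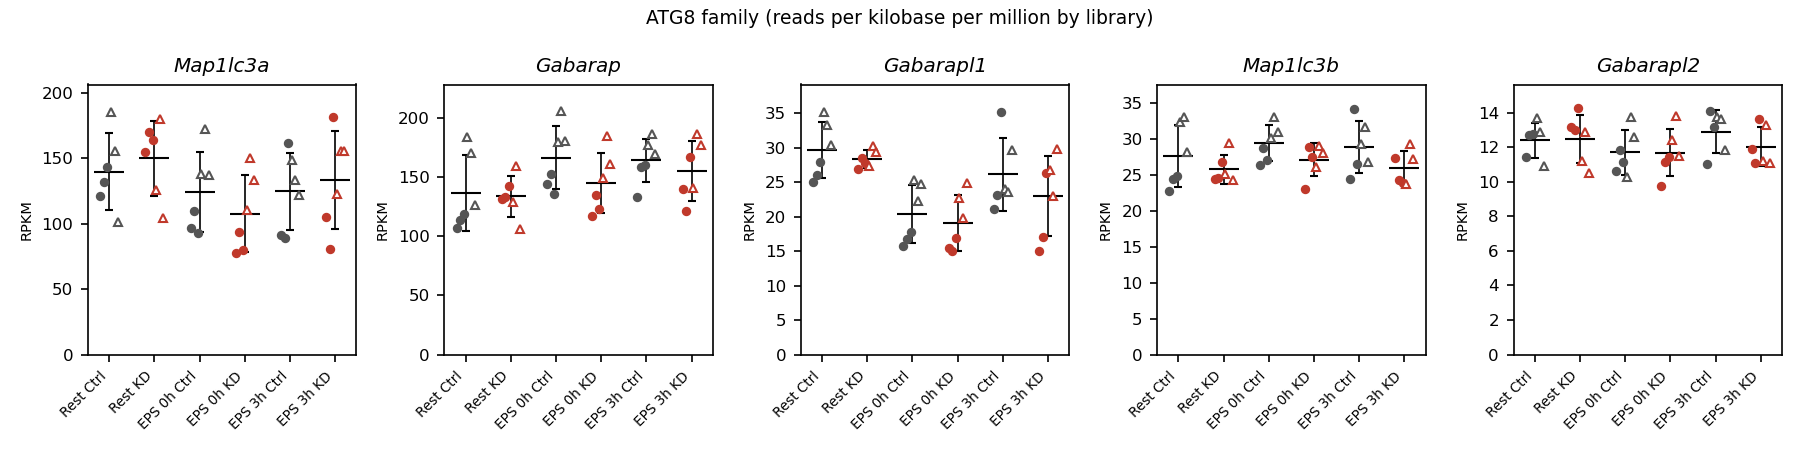
Level per kilobase of annotated exon (y axis, RPKM) of the 5 ATG8 genes in each library at Rest, EPS 0h and EPS 3h (x axis), in Control (grey) and *Tug1* KD (red), with bars at the mean ± SD of 6 libraries. Gabarapl1 is lower at EPS 0h (means 20.4 and 19.1 RPKM) than at Rest (29.7 and 28.4 RPKM), and Map1lc3b stays at means of 25.7 to 29.3 RPKM.

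The ATG4 proteases fell or were not called. Atg4b fell with EPS by 0.23 and 0.26 on the log2 scale in Control (adjusted p = 0.0169 and 0.00514, edgeR) and by 0.27 and 0.29 in *Tug1* KD (adjusted p = 0.00585 and 0.00231), with every library below Rest at EPS 3h in *Tug1* KD. Both Control calls of Atg4b were lost in replicates 1 to 3 alone, and that at EPS 0h also without the filter on low counts. The EPS 0h call in *Tug1* KD was lost in replicates 4 to 6 alone. Atg4d fell by 0.42 and 0.39 in Control and by 0.44 at EPS 0h in *Tug1* KD (adjusted p = 0.036, 0.0422 and 0.0256), with -0.73, -0.49 and -0.80 in replicates 1 to 3 and -0.19, -0.29 and -0.16 in replicates 4 to 6. At EPS 3h in *Tug1* KD the replicate block called Atg4d lower (log2FC -0.38, adjusted p = 0.00637, edgeR). So did library-size scaling, the fit without the filter on low counts, and replicates 1 to 3 alone. Atg4a and Atg4c were not called, and Atg4a passed at EPS 3h in Control with the replicate block (log2FC 0.30, adjusted p = 0.00552). Opposite-strand exons of Kri1 cover 30.2% of the Atg4d exons.

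The transcription factor genes Tfeb and Tfe3, whose products turn on lysosomal and autophagy genes through the E-box CACGTG, were both lower with EPS at the level of their own mRNA. Tfeb (chr17:48047837-48103348, plus strand) was at 28.4 to 32.1 RPM at Rest (median 31.0), 21.0 to 27.3 RPM at EPS 0h (median 24.7) and 17.7 to 30.9 RPM at EPS 3h (median 23.8) in Control. In *Tug1* KD it was at 25.7 to 34.5 RPM (median 31.8), 18.0 to 29.1 RPM (median 23.8) and 20.9 to 33.2 RPM (median 24.2). Only the EPS 0h libraries of Control lay wholly below Rest. The log2FC was -0.33 and -0.35 in Control (SE 0.112 at EPS 0h, adjusted p = 0.0174 and 0.00832, edgeR) and -0.37 and -0.27 in *Tug1* KD (adjusted p = 0.00758 and 0.0394). It was -0.46, -0.41, -0.64 and -0.45 in replicates 1 to 3 and -0.22, -0.28, -0.10 and -0.08 in replicates 4 to 6, where none of the 4 calls held.

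Tfe3 (chrX:7628761-7641444, plus strand) was at 65.1 to 93.5 RPM at Rest (median 75.7), 44.1 to 71.5 RPM at EPS 0h (median 54.4) and 38.4 to 72.0 RPM at EPS 3h (median 57.8) in Control. The *Tug1* KD libraries were at 55.7 to 86.3 RPM (median 68.7), 36.9 to 66.7 RPM (median 46.2) and 30.4 to 74.9 RPM (median 54.7). All EPS groups overlapped Rest. The log2FC was -0.46 at both times in Control (SE 0.182 at EPS 0h, adjusted p = 0.0422 and 0.0327, edgeR), and -0.51 and -0.45 in *Tug1* KD (adjusted p = 0.0221 and 0.0389), with -0.37 to -0.56 within either set of replicates. In Control the EPS 0h call was lost without the filter on low counts, and the EPS 3h call in replicates 1 to 3 alone.

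Because those factors bind the E-box, the promoters of the 43 genes were searched for it. RefSeq promoters (GRCm38.p6, 250 bases before to 50 after an annotated start) were matched by symbol for 36 of the 43 genes, all but Map1lc3a, Rb1cc1, Becn1, Pik3c3, Atg12, Atg16l1 and Bnip3l. The E-box CACGTG, which reads the same on both strands, was found in 5 of the 36 (13.9%) and in 11.7% of the 10497 tested genes with a promoter. The 5 were Lamp1, Atg3 and Atg7, which rose with EPS, Atg14, which fell, and Atg5, which was not called. The longer form TCACGTGA, which contains the E-box, was in Atg3 alone (2.78%, against 2.18%). The promoters of the 4 genes with an E-box and a call are shown to place these matches, 5′ to 3′ on the gene's strand, with each E-box in capitals together with its flanking bases where these complete TCACGTGA.
Lamp1, chr8:13158911-13159210, plus strand: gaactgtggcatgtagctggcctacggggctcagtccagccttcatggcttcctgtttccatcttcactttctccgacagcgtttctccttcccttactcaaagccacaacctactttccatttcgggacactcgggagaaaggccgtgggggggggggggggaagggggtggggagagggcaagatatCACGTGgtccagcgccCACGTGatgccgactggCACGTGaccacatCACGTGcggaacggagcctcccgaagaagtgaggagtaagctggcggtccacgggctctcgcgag
Atg3, chr16:45158579-45158878, plus strand: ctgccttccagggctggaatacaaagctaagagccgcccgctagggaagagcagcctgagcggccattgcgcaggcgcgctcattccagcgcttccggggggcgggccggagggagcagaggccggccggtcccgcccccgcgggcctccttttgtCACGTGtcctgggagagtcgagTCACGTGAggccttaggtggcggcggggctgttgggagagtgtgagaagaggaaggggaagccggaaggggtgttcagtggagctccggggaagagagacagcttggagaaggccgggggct
Atg7, chr6:114670846-114671145, plus strand: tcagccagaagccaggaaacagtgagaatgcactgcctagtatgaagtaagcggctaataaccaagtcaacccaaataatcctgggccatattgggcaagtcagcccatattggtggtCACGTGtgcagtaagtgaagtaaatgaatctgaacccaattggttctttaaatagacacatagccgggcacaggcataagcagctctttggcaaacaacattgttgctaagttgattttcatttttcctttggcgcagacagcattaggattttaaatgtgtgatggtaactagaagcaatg
Atg14, chr14:47568385-47568684, minus strand: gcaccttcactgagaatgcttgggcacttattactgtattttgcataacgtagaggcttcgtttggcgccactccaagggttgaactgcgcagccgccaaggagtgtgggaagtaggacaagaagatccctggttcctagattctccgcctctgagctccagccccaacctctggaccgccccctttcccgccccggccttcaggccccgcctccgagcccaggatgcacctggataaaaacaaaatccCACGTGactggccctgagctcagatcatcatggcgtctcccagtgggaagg

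In Lamp1 the 4 E-boxes begin 61, 45, 28 and 15 bases before the annotated start, and in Atg3 the 2 begin 94 and 71 bases before it. In Atg7 the E-box begins 132 bases before the annotated start, and in Atg14 it begins 1 base before it. The Atg7 window on GRCm38 (114670846 to 114671145) lies far from the gene's start on GRCm39 (114620044). Gabarapl1 on the same chromosome shifted less between the builds (window 129532942 to 129533241, gene start 129509725). The Atg7 window therefore appears to lie at a start inside the gene. Of the other motifs searched on both strands, the FOXO motif GTAAACA was in 0 of the 36 promoters (3.06% of all), the CRE TGACGTCA in Atg5 (2.78%, against 3.49%), the heat shock motif GAANNTTC in Optn and Vcp (5.56%, against 7.03%), and the AP-1 motif TGANTCA in Tfe3 (2.78%, against 6.57%). These are matches of letters in a fixed window and were not measured as binding.

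Lamp1, an abundant glycoprotein of the lysosomal membrane, rose with EPS. It was at 686 to 805 RPM at Rest (median 715), 763 to 963 RPM at EPS 0h (median 883) and 828 to 1047 RPM at EPS 3h (median 840.2) in Control. With *Tug1* KD it was at 737 to 823 RPM (median 766), 872 to 1056 RPM (median 878) and 876 to 1004 RPM (median 935). The EPS 0h libraries of Control overlapped Rest, and the other EPS libraries lay above it. The log2FC was 0.27 and 0.30 in Control (SE 0.076 at EPS 0h, adjusted p = 0.00437 and 0.00113, edgeR), and 0.27 and 0.28 in *Tug1* KD (adjusted p = 0.00389 and 0.00231). In Control replicates 1 to 3 gave 0.45 at both times, and replicates 4 to 6 gave 0.08 and 0.16. In replicates 4 to 6 alone the Control calls at both times and the EPS 0h call in *Tug1* KD were lost. Opposite-strand exons of Grtp1 cover 49.2% of the Lamp1 exons, both EPS 3h calls were lost with library size as the only scaling, and all 4 were lost without the filter on low counts. Lamp2, which takes part in fusion of autophagosomes with lysosomes, was at 232 to 291 RPM in Control at Rest (median 250.1), 241 to 333 RPM at EPS 0h (median 293) and 207 to 356 RPM at EPS 3h (median 305). Over all libraries it was not called, with log2FC of 0.17 and 0.20, and in replicates 1 to 3 alone it was called higher at EPS 0h in Control. Its *Tug1* KD libraries were at 279 to 356 RPM (median 318), 282 to 419 RPM (median 348) and 261 to 367 RPM (median 324).

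Among the cargo receptors, which tie ubiquitylated or other cargo to ATG8 proteins, Optn and Calcoco1 fell and Tax1bp1 rose. Optn was at 29.4 to 45.8 RPM at Rest (median 40.6), 21.2 to 34.9 RPM at EPS 0h (median 25.9) and 22.5 to 34.6 RPM at EPS 3h (median 27.7) in Control. Under *Tug1* KD the values were 33.1 to 42.7 RPM (median 39.7), 26.5 to 33.0 RPM (median 30.9) and 25.6 to 33.7 RPM (median 29.6). Only the EPS 0h libraries of *Tug1* KD lay wholly below Rest. The log2FC was -0.53 and -0.48 in Control (SE 0.124 at EPS 0h, adjusted p = 0.000852 and 0.00137, edgeR), and -0.36 and -0.41 in *Tug1* KD (adjusted p = 0.018 and 0.00572), and these calls held in all 8 alternatives. Within either set of replicates the value was -0.27 to -0.67. Tax1bp1 rose by 0.49 at EPS 3h in Control and by 0.30 and 0.40 in *Tug1* KD on the log2 scale (adjusted p = 0.0011, 0.0447 and 0.00685), and had 0.23 at EPS 0h in Control (adjusted p = 0.147, and 0.044 with the replicate block). Both *Tug1* KD calls of Tax1bp1 were lost with library size as the only scaling and without the filter on low counts. The EPS 0h call in *Tug1* KD was also lost with limma-voom and in replicates 4 to 6 alone. Calcoco1 fell by 0.24 and 0.28 in Control and by 0.27 and 0.25 in *Tug1* KD (adjusted p = 0.0262, 0.00633, 0.00954 and 0.0142). Replicates 1 to 3 gave -0.32, -0.35, -0.47 and -0.41 for Calcoco1 and replicates 4 to 6 gave -0.15, -0.20, -0.07 and -0.08, where none of the 4 calls held, and the EPS 0h call in Control was lost without the filter on low counts. Nbr1 was called only with library size as the scaling, lower at EPS 3h in *Tug1* KD.

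The mitophagy genes gave few calls with EPS. Pink1, the kinase that marks damaged mitochondria, was at 121 to 181 RPM at Rest (median 140.1), 96.7 to 136 RPM at EPS 0h (median 116) and 101 to 166 RPM at EPS 3h (median 123) in Control. In *Tug1* KD it was at 118 to 158 RPM (median 142), 66.9 to 134 RPM (median 103) and 82.0 to 144 RPM (median 121). The groups overlapped throughout, and with TMM scaling and no block the log2FC passed the test at EPS 0h in *Tug1* KD alone, at -0.42 (SE 0.141, adjusted p = 0.0139, edgeR), where replicates 1 to 3 gave -0.81 and replicates 4 to 6 gave -0.07. In Control it was -0.31 (adjusted p = 0.0804, and 0.0359 with the replicate block) and -0.18 (adjusted p = 0.286), and library-size scaling called it lower in all 4 EPS comparisons. Opposite-strand exons of Ddost cover 37.4% of the Pink1 exons.

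Bnip3l rose by 0.22 on the log2 scale at EPS 3h in Control (adjusted p = 0.0207, edgeR), from 77.1 to 87.8 RPM at Rest to 80.6 to 111 RPM (median 92.3). Scaling by library size alone gave 0.05 and no call. The *Tug1* KD libraries were at 86.2 to 111 RPM at EPS 0h (median 102) and 89.7 to 111 RPM at EPS 3h (median 97.9), with log2FC of -0.01 and -0.02, and library-size scaling gave -0.18 at EPS 3h and called it lower (adjusted p = 0.0439, edgeR). Fundc1, a further receptor of the outer mitochondrial membrane, was called only in replicates 1 to 3 alone, higher at EPS 0h with either LNA.

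The EPS response of Control and that of *Tug1* KD, which share no libraries, shared most of their calls, for the autophagy genes as for all genes. All 7 genes that rose at EPS 0h in Control rose in *Tug1* KD, where they were 77.8% of 9, with Atg3 and Tax1bp1 called in *Tug1* KD alone. Of the genes that fell at EPS 0h, 11 were shared (84.6% of 13 in Control and 78.6% of 14 in *Tug1* KD). At EPS 3h, 10 risers were shared (90.9% of 11 and 100% of 10), with Bnip3l called in Control alone, and 10 fallers were shared (76.9% of 13 and 90.9% of 11). Over all 13995 genes, the shared calls were 92.2% of the risers of Control and 77.4% of those of *Tug1* KD at EPS 0h, and 81.6% and 70.6% of the fallers. At EPS 3h they were 87.7% and 87.3% of the risers and 83.6% of the fallers of either LNA.

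The difference between the EPS responses, tested as an interaction, passed the threshold for 0 of the 43 genes at EPS 0h and for 0 at EPS 3h (edgeR), against 0% and 0.00715% of all genes. At an unadjusted p under 0.05 there were 0 and 1, and DESeq2 and limma-voom also called 0. The 1 gene was Bnip3l at EPS 3h, with a difference in log2FC of -0.24 (95% interval -0.46 to -0.02, adjusted p = 1.0, edgeR). The differences ran from -0.31 (Map1lc3a) to 0.19 (Ulk1) at EPS 0h and from -0.24 (Bnip3l) to 0.19 (Atg2a) at EPS 3h, with SE of 0.0903 to 0.282. With errors of that size, small differences between the responses could not be told from the spread between libraries.

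**Figure D5:**
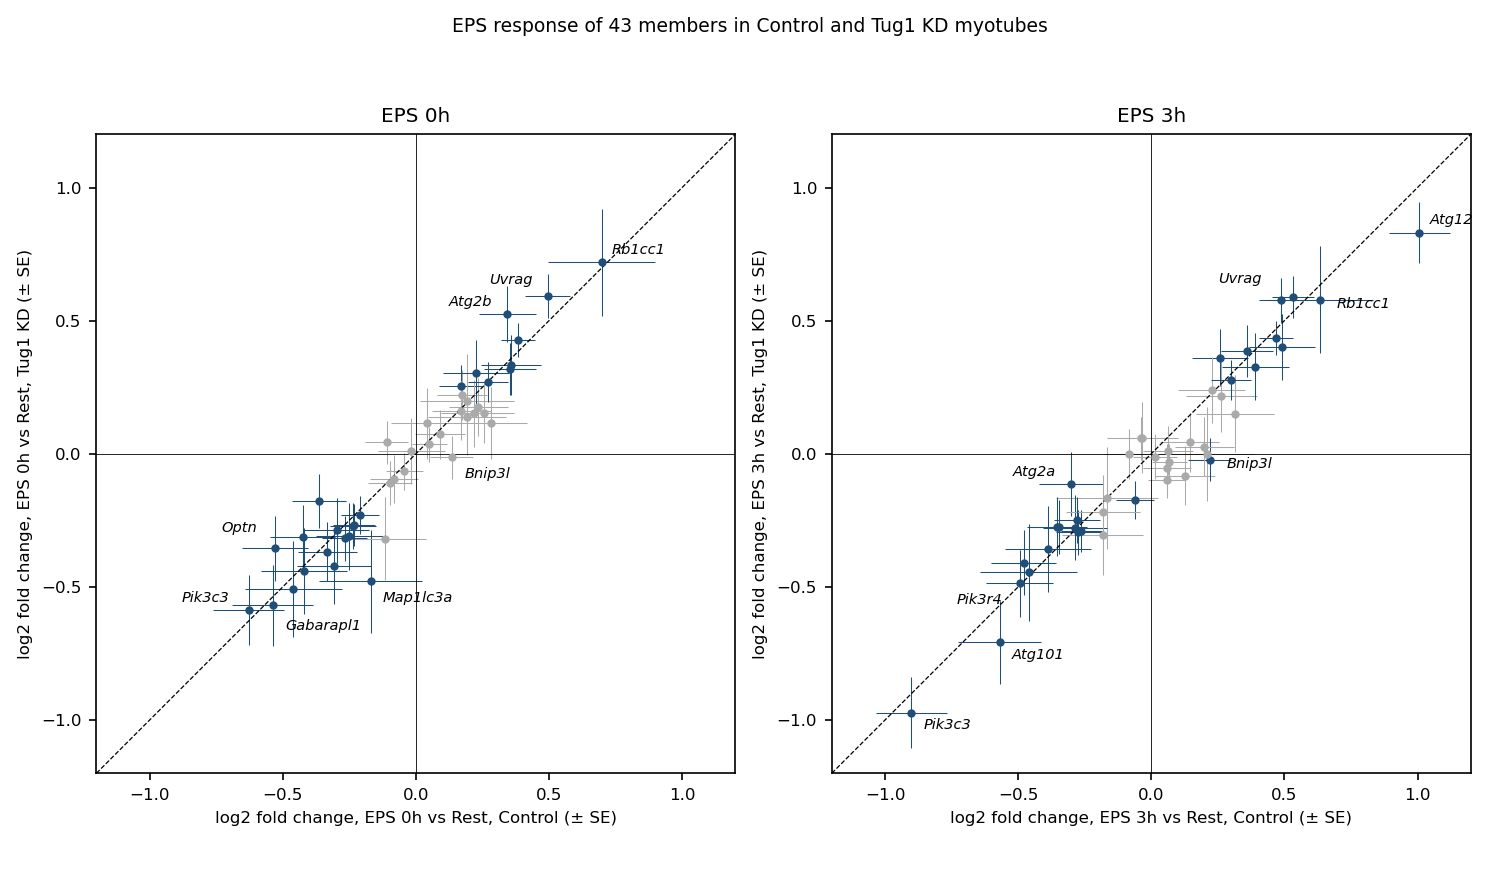
EPS log2FC in Control (x axis) against EPS log2FC in *Tug1* KD (y axis) for the 43 genes at EPS 0h and EPS 3h, with bars at ± SE. Dark blue genes passed the test in at least 1 of the 2 LNA groups, grey genes in neither, and the dashed line marks equal responses. Pik3c3 lies at the lower end in both panels and Atg12 at the upper end at EPS 3h (1.01 and 0.83).

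Other genes of the pathway, listed by function, were counted in the same tests, in which 5.54%, 8.25% and 6.38% of all genes were higher and 4.47%, 6.07% and 5.11% lower with *Tug1* KD at Rest, EPS 0h and EPS 3h. With EPS, 20.5% and 26.1% of all genes rose in Control at EPS 0h and EPS 3h, and 24.4% and 26.2% in *Tug1* KD, while 18.4%, 25.9%, 21.2% and 25.9% fell. The counts are descriptions of short lists and were not tested against these shares. Of 19 genes for mTORC1 and lysosomal nutrient sensing, which hold autophagy back when nutrients are plentiful, 4 were higher with *Tug1* KD at each time, and 1, 1 and 2 were lower at Rest, EPS 0h and EPS 3h. Rptor, which encodes the mTORC1 scaffold Raptor, was at 112 to 125 RPM in Control at Rest (median 116) and at 154 to 211 RPM in *Tug1* KD (median 168), with no overlap and a log2FC of 0.57 (adjusted p = 6.42e-05, edgeR). It was 0.59 at EPS 0h and 0.53 at EPS 3h (adjusted p = 3.55e-05 and 0.000218). Deptor, an inhibitor of mTOR, had log2FC of 0.44, 0.55 and 0.46 with *Tug1* KD.

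With EPS, 7 and 5 of those 19 genes rose in Control at EPS 0h and EPS 3h, 7 and 6 in *Tug1* KD, and 2, 4, 3 and 4 fell. Fnip1, the folliculin partner that acts on the Rag GTPases, rose from 57.1 to 84.9 RPM at Rest (median 69.5) to 124 to 223 RPM at EPS 0h (median 194) in Control, with log2FC of 1.38 and 1.44 in Control and 1.49 at both times in *Tug1* KD. Rragd, a Rag GTPase gene, rose by 0.97 and 1.32 in Control and by 0.94 and 1.44 in *Tug1* KD on the log2 scale. Every EPS library of both genes lay above the Rest libraries of its LNA.

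Of 15 V-ATPase subunits, which acidify the lysosome, 5, 6, 6 and 6 rose and 1 fell in each of the 4 EPS comparisons, and 1 was higher with *Tug1* KD at EPS 0h. Atp6v0d1 rose by 0.57, 0.54, 0.59 and 0.58 on the log2 scale and Atp6v1c1 by 0.44, 0.62, 0.53 and 0.61. Of 19 lysosomal hydrolases and cofactors, 2 rose at both times in Control and 2 and 3 in *Tug1* KD, while 2, 6, 2 and 8 fell. Gla, which encodes alpha-galactosidase A, rose by 0.46, 0.54, 0.45 and 0.58.

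Of 15 genes for fusion of autophagosomes with lysosomes, 3, 4, 3 and 2 rose and 3, 5, 4 and 6 fell with EPS. Plekhm1, an adaptor that bridges Rab7, tethers and ATG8 proteins, fell by 0.79, 1.27, 0.71 and 1.22 on the log2 scale, and Epg5, a tether, rose by 0.75, 0.39, 0.96 and 0.70. The SNARE gene Stx17 was lower with *Tug1* KD at EPS 3h (log2FC -0.35, adjusted p = 0.028, edgeR).

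Of 15 Vcp cofactors, 1 was higher with *Tug1* KD at Rest (Faf1, log2FC 0.25), 2 were higher and 1 lower at EPS 0h (Faf1 0.31, the deubiquitylase gene Yod1 -0.79), and none was called at EPS 3h. With EPS, 3, 6, 5 and 5 rose and 1, 1, 2 and 1 fell, among them Ubxn2a with 0.62, 0.69, 0.77 and 0.66 and Yod1 with -1.03 at EPS 0h in Control and -1.47 in *Tug1* KD.

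Of 23 further autophagy and mitophagy genes, none was called with *Tug1* KD at Rest, 2 were higher and 1 lower at EPS 0h, and at EPS 3h 1 was higher and 1 lower. With EPS, 4, 7, 3 and 7 rose and 4, 4, 5 and 5 fell. Atg9b, a paralog of Atg9a, fell by 1.04, 1.18, 1.30 and 1.40 on the log2 scale. Wdfy3, a large scaffold for selective autophagy, had log2FC of 0.58 and 0.56 with *Tug1* KD at EPS 0h and EPS 3h.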

How the data were processed

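The deposited values were raw counts per gene in 36 libraries, which the authors made from poly(A)-selected, stranded RNA libraries. Per the submitters' processing notes, the tools were fastp 0.14.1, FastQC 0.11.7 and STAR 2.5, with GRCm39; the strand setting of the counting is not given in the sources used here. Of the 55416 genes, 1492 carried no name (0.0327% of counts) and were kept by identifier.

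Genes with at least 1 CPM in at least 12 libraries (13995) were fitted with edgeR 4.0.16 (R 4.3.3; TMM scaling, quasi-likelihood F test, 1 coefficient per group over 36 libraries, no block), with Benjamini-Hochberg adjustment over all tested genes and a threshold of 0.05. SE was the log2FC divided by the root of F, and 95% intervals were 1.96 SE either side. RPKM used the union of annotated exons of a GENCODE annotation on GRCm39, not the one used for counting, and gene coordinates are from it. Deviations of libraries with the same replicate number were correlated at 0.66 or more for *Tug1* KD at EPS 0h, and over 0.1 for every pair at EPS 3h and in the EPS comparisons other than EPS 3h in *Tug1* KD. The check asked for a correlation over 0.1, which *Tug1* KD at Rest did not reach in every pair. A library correlated best with its own number in 6 of 6 cases for *Tug1* KD at EPS 0h. For *Tug1* KD at EPS 3h this held in 2 cases. For EPS against Rest it held in 2 and 4 in Control, and in 3 at EPS 0h in *Tug1* KD. Matching by number for every library was thus seen only for *Tug1* KD at EPS 0h. The study's methods describe replicate wells from separate experiments, so the 6 libraries of a group are not 6 independent experiments. They do not say which number belongs to which. As the fit had no block, p-values measure the spread between wells together with the shift between the sets of replicates. They do not measure replication over experiments. All pairs of libraries differed by more than sampling noise (chi-square per degree of freedom at least 4.26).

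The 43 genes and the other lists were chosen with earlier results of these data known. Libraries were shown for the 3 genes that rose most and the 3 that fell most among those called in each comparison, for any gene called in an interaction, and for the ATG8 genes, Ulk1, Becn1, Tfeb, Tfe3, Pink1, Bnip3l, Lamp1, Lamp2 and Vcp; from each other list, up to 2 called genes with the largest change were named per comparison. A gene that this rule would name is not reported here. Alternatives were DESeq2 1.42.0, limma-voom (limma 3.58.1), library size alone, no filter, the replicate block, a term for the set of replicates, and each set alone. The fitting was tested on simulated data.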

Additional observations from a re-analysis of the deposited data

Results flagged for a closer look

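Of 156 sets of 6 libraries checked (26 genes in 6 groups), 1 held a library far from the others. In *Tug1* KD at EPS 0h, replicate 5 had Pik3c3 at 18.2 RPM, where the next highest library had 13.8 RPM and the lowest 11.3 RPM. The gap was 0.637 of the range of the group, above the critical value of 0.625. Chance alone passes that value in about 1 in 20 groups. The value is still below the 18.9 RPM of the lowest *Tug1* KD library at Rest.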

How the results depend on the processing

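Of 800 values (100 called log2FC under 8 alternatives), 697 kept direction and call, 103 kept direction and lost the call, and 0 reversed, and 40 calls were kept in every alternative. The count of genes called with *Tug1* KD at Rest (4) was 7 with the replicate block, 7 with the term for the set of replicates, 2 when replicates 1 to 3 stood alone and 7 when replicates 4 to 6 did. At EPS 0h (5) it was 2 without the filter on low counts, 9 with the replicate block, 9 with the set term, 2 within replicates 1 to 3 and 11 within replicates 4 to 6. At EPS 3h (3) it was 5 with DESeq2, and 7 with the replicate block and with the set term. For EPS 0h against Rest the count was 12 without the filter in Control (main 20), and 11 in replicates 4 to 6 alone in *Tug1* KD (main 23). The cause was not tested, and replicates 1 to 3 or 4 to 6 alone leave 3 libraries per group. With the replicate block the counts of all genes rose as well, as given above. Shares of all genes are not given for DESeq2, the set term or either set of replicates alone. For those fits, whether the autophagy genes moved apart from all genes was therefore not tested. Replicate numbers of *Tug1* KD at Rest and of EPS 3h in *Tug1* KD did not reach the correlation asked of every pair. Only *Tug1* KD at EPS 0h matched every library by number. The block ended none of the 100 calls.

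Without the filter the median of all genes moved by -0.0871 at EPS 3h in Control and by -0.146 in *Tug1* KD, and the splits of higher and lower calls were 6 and 6, 6 and 13, 4 and 14, and 4 and 15, in the order Control at EPS 0h, Control at EPS 3h, *Tug1* KD at EPS 0h, *Tug1* KD at EPS 3h. Of all 39727 genes then tested, 6216, 11468, 7817 and 12730 were called in either direction, in the same order. The interaction counts were 0 in all 8 alternatives. The lowest count of any of the 43 genes was 122, and depth was not varied.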
